A study of Mus musculus with 12 samples.

Results

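Pomc, Npy, Agrp and Cartpt are the peptide genes of the arcuate neurons that set food intake, and their transcripts were measured here in the hypothalamus of mice that drank alcohol or only water from adolescence to adulthood. The 4 genes were found by their symbols among the probes of an Agilent 1-color mouse array. They are 4 of 27827 names in the gene name column of the array and have 5 of its 41174 probes, with 2 probes for Cartpt and 1 for each other gene. The mice were male and of the outbred ICR strain, and they entered the experiment at 3 weeks of age. Water mice had only water in both drinking tubes. Alcohol mice could choose between a tube of water and a tube of 5% or 10% alcohol, up to day 57 by the design text. By their labels, 3 alcohol arrays are of low drinkers, 3 of early high drinkers and 3 of late high drinkers, beside 3 arrays of water mice.

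Each array held 1 RNA pool. The 9 water mice made 3 pools of 3, and 19 alcohol mice made 9 pools of 1 to 3 mice. The labels do not tell which pool drank from the 5% or the 10% tube, nor how many mice each alcohol pool held. The study's own list of pools gives both, under pool names that the labels do not carry, and some pools mixed mice of the 5% and 10% tubes. By that list, each pool of less consumption held more mice than any pool of more consumption, so pool size moves with the drinking group. The mice had access to alcohol to the end, so the arrays do not separate past from present drinking. All p-values given here measure the spread between such pools. The 12 arrays lay on 3 slides of 4. Slide 1 carried the 3 water pools and low pool 1, slide 2 carried low pools 2 and 3 with early high pools 1 and 2, and slide 3 carried early high pool 3 with the 3 late high pools. Slide 1 was also scanned on another day than the other slides, so for 8 of the 9 alcohol pools drinking cannot be told apart from slide.

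Pomc neurons and Agrp/Npy neurons of the arcuate nucleus act against each other. Pomc is the precursor of α-MSH, which lowers food intake through melanocortin receptors, and of the opioid β-endorphin. Agrp is the natural antagonist of the same receptors and Npy is a strong stimulus of feeding, and both are made by the same arcuate cells. Cartpt, which encodes the CART peptides, is made by many Pomc neurons and by other hypothalamic cells outside the arcuate nucleus. Pomc is also the precursor of ACTH in the pituitary, which hangs from the base of the hypothalamus.

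The probes are printed to show which piece of each precursor was read. Capitals mark the stop codon in Pomc and a pair of lysine and arginine codons, a cleavage site of prohormones, in Npy and Cartpt. No letters of Agrp are in capitals. All read 5′ to 3′ in the direction of the transcript.
Pomc: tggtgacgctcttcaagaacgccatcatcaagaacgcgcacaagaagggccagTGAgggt
Npy: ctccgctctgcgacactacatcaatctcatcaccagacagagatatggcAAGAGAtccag
Agrp: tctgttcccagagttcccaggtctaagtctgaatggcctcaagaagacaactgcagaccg
Cartpt probe 1: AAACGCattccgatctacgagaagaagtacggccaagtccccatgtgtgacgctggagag
Cartpt probe 2: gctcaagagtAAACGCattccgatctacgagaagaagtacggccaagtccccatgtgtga

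By the coordinates in the scanner files (mouse build mm9), the Pomc probe lies at chr12:3960413-3960472 on the plus strand and reads the end of the coding sequence, where β-endorphin is encoded. It therefore measures the precursor transcript and not any single peptide. The Npy probe lies at chr6:49773743-49777505 on the plus strand. Its 60 bases span 3763 bases of genome, so it joins exons, and it covers the end of mature NPY with the cleavage site behind it. The Agrp probe at chr8:108091063-108091279 on the minus strand spans 217 bases and reads coding sequence in front of the cysteine-rich domain that binds the receptors. The Cartpt probes lie at chr13:100668967-100669956 and chr13:100668977-100669966 on the minus strand and overlap by 50 bases, so they are not independent of each other. Both read the start of the mature CART peptide.

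All 5 probes were well above background on all 12 arrays and none was saturated. Between 67.0% and 79.3% of the spots of an array were well above background, and the 75th percentile of intensity was between 1512 and 1853. Levels are log2 intensities minus that percentile of the same array, so 0 is the 75th percentile and a difference of 1 is a doubling. Levels of different probes are not comparable. Other peptides of the hypothalamus were present on every array, with levels of 4.70 to 5.11 for Avp (vasopressin), 4.80 to 5.61 for Oxt (oxytocin), 5.44 to 6.05 for Hcrt (orexin) and 5.01 to 5.71 for Pmch (melanin-concentrating hormone). Trh, Nkx2-1 and Nr5a1 were also well above background on all 12 arrays and Sim1 on 11. The probe for Otp was well above background on 0 of 12 arrays, and Crh was not analysed here.

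**Figure D1:**
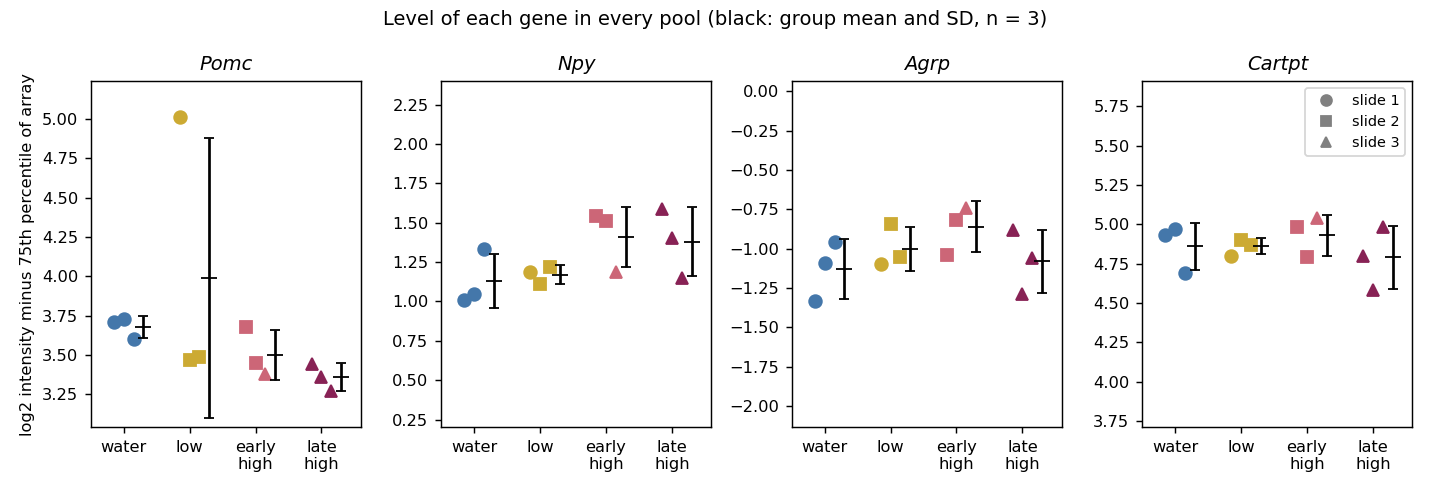
Level of each gene (y axis, log2 intensity minus the 75th percentile of the array) in the 12 pools, by drinking group (x axis), with probe 1 for Cartpt. Each point is a pool and its shape gives the slide, and the black bars are the group mean and SD of 3 pools. The y axes span the same log2 range but start at different levels. Low pool 1 stands at 5.01 for Pomc while the other 11 pools lie between 3.27 and 3.73. In the other 3 genes the groups overlap.

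None of the 4 genes passed the test in any of the 6 comparisons made. With limma over all probes, 0 of 4 genes had an adjusted p under 0.05 for alcohol against water, where 0.0% of 32376 probes were called, and 0 of 4 had an unadjusted p under 0.05, against 5.53% (1789) of all probes. The methods' t-test called 1089 probes higher and 599 lower at an unadjusted p under 0.05 and 0 after Benjamini-Hochberg adjustment, with 0 of the 4 genes past the latter. In low against water 0.218% of 31622 probes were called, in high against low 0.0221%, and in the other 3 comparisons (early high and late high against water, and late high against early high) 0.0%, with 0 of the 4 genes in each. At an unadjusted p under 0.05 these shares were 9.08% for low against water, 4.7% for early high against water, 15.9% for late high against water, 14.7% for high against low and 12.4% for late high against early high, again with 0 of 4 genes. The 3 comparisons with water share the same 3 water arrays. Groups whose arrays did not overlap at all were counted as well. For alcohol against water this was so in 0 of 4 genes (1.31% of probes), for low against water in 0 (9.06%), for early high against water in 0 (16.4%), for late high against water in 1 (26.0%), for high against low in 0 (4.62%) and for late high against early high in 0 (21.5%).

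**Figure D2:**
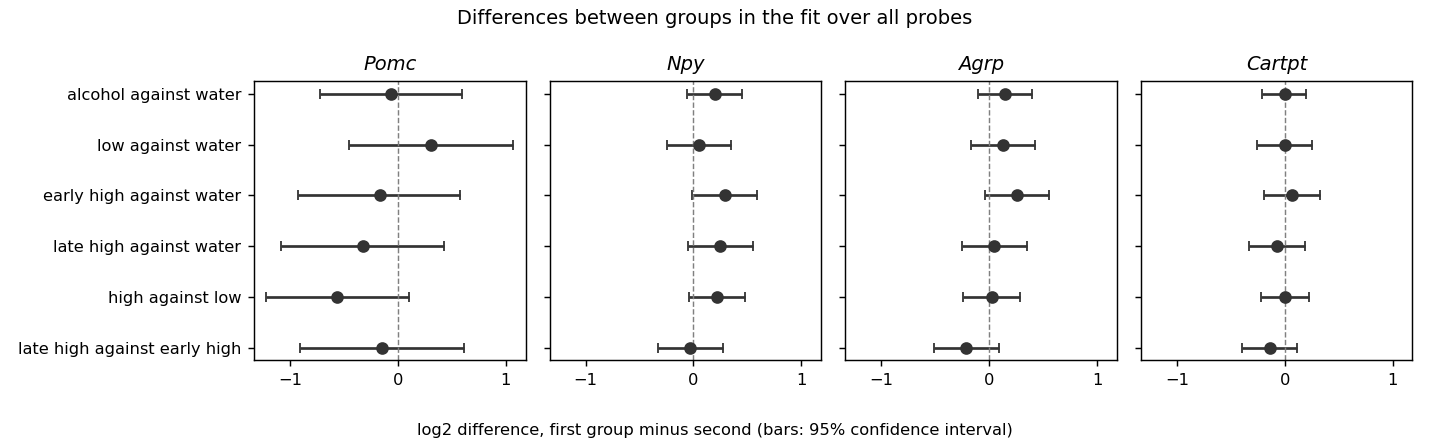
Difference between groups (x axis, log2, first group minus second) for each gene and each of the 6 comparisons (y axis). Points are the limma estimates and bars their 95% confidence intervals. Each interval includes 0. The intervals of Pomc are the widest, from -1.22 to 1.07 over the 6 comparisons.

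Pomc was the gene of the 4 that varied most between pools, and 1 pool made most of that spread. Its level was 3.71, 3.73 and 3.60 in water pools 1 to 3 and 5.01, 3.47 and 3.49 in low pools 1 to 3. It was 3.68, 3.45 and 3.38 in the early high pools and 3.44, 3.36 and 3.27 in the late high pools. Low pool 1 was far above every other array, and 7 of the 9 alcohol pools were below the mean of the water pools. The SD over the 12 arrays was 0.46, larger than that of 95.5% of the 26032 probes with which it was compared (their median SD was 0.13), and without low pool 1 it was 0.15. Before any scaling, the intensity of the probe was 56011 in low pool 1 and between 16972 and 22646 in the other pools.

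The groups came in the order low, water, early high and late high, with means of 3.99 ± 0.89, 3.68 ± 0.07, 3.50 ± 0.16 and 3.36 ± 0.09 (SD, n = 3 each). Neighbours in this order overlapped. Alcohol against water gave a difference of -0.06 (SE 0.30, 95% confidence interval -0.72 to 0.59, limma adjusted p = 0.974). An exact two-sided permutation test over the arrays gave p = 0.882, where 3 against 9 arrays could not go below 0.00455. Without low pool 1 the difference was -0.24 (SE 0.08), with a limma adjusted p of 0.498. In low against water the difference changed sign with that pool, from 0.31 with it (SE 0.34, limma adjusted p = 0.866) to -0.20 without it (limma adjusted p = 0.302).

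Late high drinkers were the one group whose Pomc arrays did not overlap with those of water. The highest late high pool was at 3.44 and the lowest water pool at 3.60. The difference was -0.32 (SE 0.34, limma adjusted p = 0.694), and without low pool 1, whose spread enters the fit, it was again -0.32 with an SE of 0.09 and a limma adjusted p of 0.133. Its sign turned when slide (1.40, limma adjusted p = 0.168) or scan day (1.21, limma adjusted p = 0.0408) was a fixed term, fits in which low pool 1 alone ties the water pools to the other slides. Arrays of these groups did not overlap in 26.0% of 29521 probes, 13.5% in the same direction, so 1 gene of 4 that did so is near the background. The 3 late high pools lay on slide 3 and the water pools on slide 1. In the same comparison all 4 blood markers were lower at an unadjusted p under 0.05 (median difference -0.59), where 8.94% of all probes were, with a summed level of 6.25 to 6.70 in late high and 6.94 to 7.23 in water pools. The 10 thalamus markers had a median difference of 0.27 and summed levels of 5.39 to 5.88 and 5.39 to 5.47. Of the 12 tested pituitary markers 3 were lower and 1 higher at an unadjusted p under 0.05 (median difference -0.21). Of the 8 tested choroid plexus markers 2 were lower and 0 higher (median difference -0.29). Of all probes 6.97% were higher at that p. Their part in the Pomc value was not tested. Within slide 3, the mean of the late high pools was 3.36 and the single early high pool was at 3.38.

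High against low gave -0.56 for Pomc (SE 0.29, limma adjusted p = 0.392). This value rested on low pool 1, since it was -0.05 without it. In the same comparison 8 of the 12 tested pituitary markers were lower at an unadjusted p under 0.05, where 11.3% of all probes were, and the median difference of the 12 was -0.94. Their part in the Pomc value was not tested. Within slide 2, early high pools 1 and 2 had a mean of 3.57 and low pools 2 and 3 a mean of 3.48. Late high against early high gave -0.15 (SE 0.34, limma adjusted p = 0.886), with all 3 late high pools below the early high mean, and -0.06 without early high pool 1.

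Low pool 1 shared its slide and scan day with the 3 water pools. On that slide its Pomc level was higher than the water mean by 1.33, or 2.52-fold, where the 3 water pools had an SD of 0.07. The other genes of the group did not share this. On the same slide low pool 1 differed from the water mean by 0.06 for Npy, 0.03 for Agrp and -0.06 for Cartpt, and it lay within the range of the water pools for each of them. Of the 26032 probes compared, 21 (0.0807%) rose as much as Pomc or more in this pool. With slide as a fixed term of the model, the contrast of alcohol with water rests on this 1 alcohol pool, and Pomc then came out at 1.33 (limma adjusted p = 0.00968), with the sign turned. With scan day as the block, an alternative chosen after seeing the data, it was also 1.33 (limma adjusted p = 0.0308). With slide as a random block it was 0.30 (limma adjusted p = 1.0).

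Since the pituitary also makes Pomc, 16 pituitary marker genes were read beside it. Gh (growth hormone) was at -0.93 in low pool 1 and at or below -3.98 in the others, and Prl (prolactin) was at 0.36 in low pool 1 and at or below -0.71 in the others. Both were thus highest in the pool with the high Pomc, though water pool 3 came next for both and had the lowest Pomc of the water pools. Neither had a usable value on water pool 2, where the signal was under 2 times its error.

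Further pituitary genes did not peak in that pool. Cga, the shared subunit of the glycoprotein hormones, was at 2.78 in low pool 1 and at 3.44 in water pool 3, and its range over the 12 arrays was from -1.41 upward. Tshb (thyrotropin) was at -2.57 in low pool 1 and -2.34 in late high pool 1. Pitx1, a pituitary transcription factor, was at -1.54 in low pool 1 and at -0.88 in late high pool 1. Tbx19, the factor that drives Pomc in the pituitary, was well above background on 0 of 12 arrays. Of the 12 genes of the list with a value in low pool 1 and enough other arrays, 2 were highest there. Their median against the water mean was 0.27 in that pool. Cga, Tshb and Pitx1 were above the water mean there by 0.54, 0.35 and 0.24. Only Lhb (-0.09) and Pax7 (-0.22) lay below it.

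The summed level of the 15 pituitary genes on the array was 2.38 to 3.87 in the water pools, 3.15 to 3.54 in the low pools, 1.43 to 2.34 in the early high pools and 2.50 to 3.17 in the late high pools. It was highest in water pool 3 and lowest in early high pool 2. Such a sum weighs bright genes most and largely follows Cga, which was also highest and lowest in these pools (3.44 and -1.41). In low pool 1, Cga at 2.78 outweighed Gh at -0.93 and Prl at 0.36. Markers of other tissue moved in low pool 1 as well. Of 10 thalamus markers, 6 were lowest or next to lowest of the 12 arrays there, and the median of the list was -0.22 against the water mean. The medians of the 4 blood and the 8 choroid plexus markers were -0.48 and 0.21, and 2 of the latter, Kl and Aqp1, were highest there. Slc18a2, the vesicular transporter of dopamine and other monoamines, was listed here as an arcuate marker and not as a marker of other tissue. Its level was highest in low pool 1, at 1.12, but only by 0.02 over the next pool. Th, a further dopamine gene of the arcuate list, ranked 4 in low pool 1, at 1.07, where the highest other pool was at 1.57. Slc6a3, the dopamine transporter, was above the water mean by 1.43 and ranked 15 by its rise in low pool 1. The part of pituitary or other tissue in the Pomc values was not tested. In a piece of whole hypothalamus, fewer cells of a type and less RNA per cell cannot be told apart either, for Pomc and for the other genes alike.

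**Figure D3:**
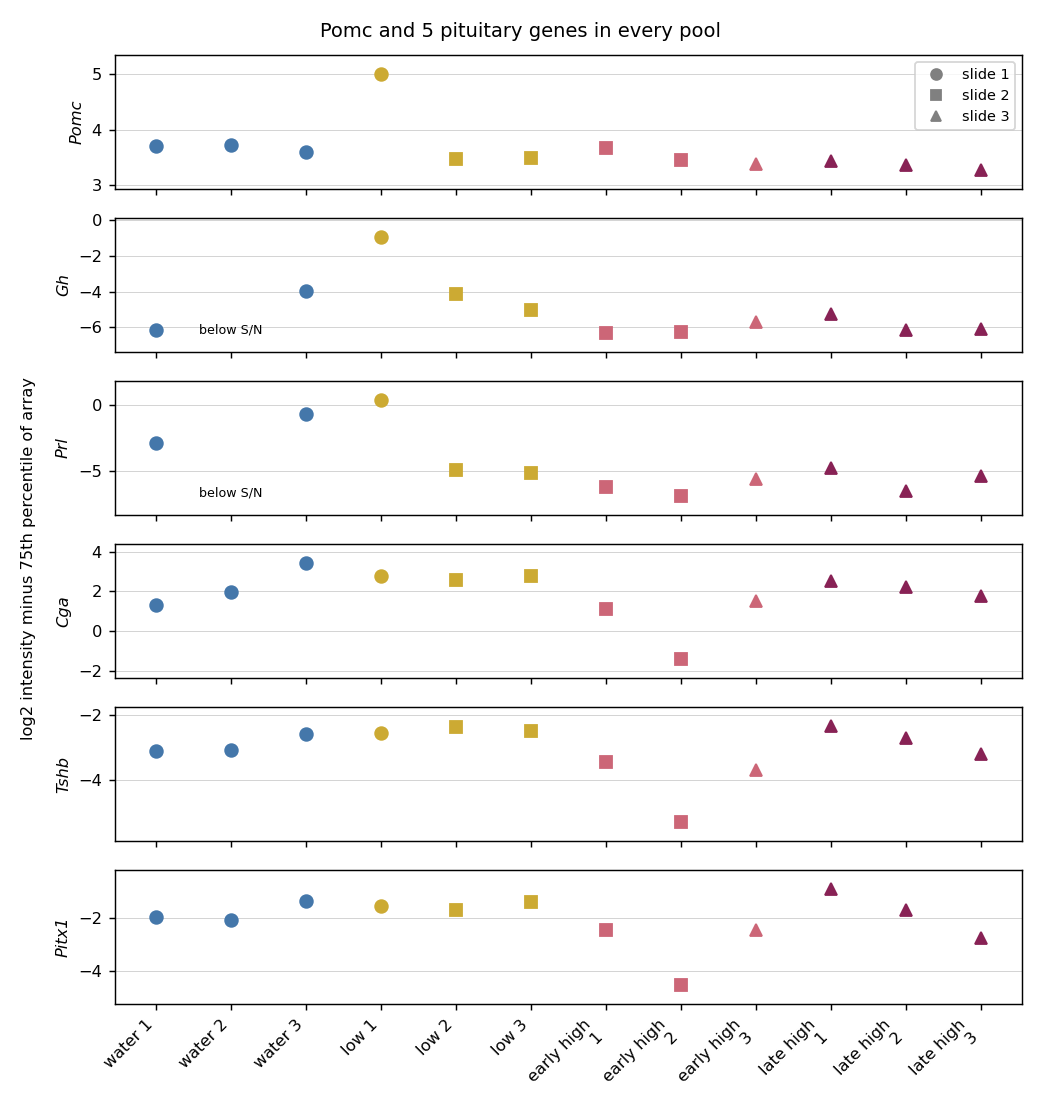
Level (y axis, log2 intensity minus the 75th percentile of the array, a scale of its own for each gene) of Pomc and 5 pituitary genes in each of the 12 pools (x axis). Shapes give the slide and colors the group, and "below S/N" marks a value under the signal/noise limit. Pomc, Gh and Prl are highest in low pool 1, Cga in water pool 3, and Tshb and Pitx1 in late high pool 1. Early high pool 2 is lowest for Cga, Tshb and Pitx1.

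Npy, the feeding peptide, was on average a little higher in alcohol pools, and by less than the test could call. Its level was 1.01, 1.05 and 1.33 in water pools 1 to 3, and 1.19, 1.11 and 1.22 in the low pools. It was 1.54, 1.51 and 1.19 in the early high pools and 1.59, 1.40 and 1.15 in the late high pools. The pools of both high groups reached above all water and low pools, but early high pool 3 and late high pool 3 lay among them, so every pair of groups overlapped.

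The means of Npy were 1.41 ± 0.19 in early high, 1.38 ± 0.22 in late high, 1.17 ± 0.06 in low and 1.13 ± 0.17 in water (SD, n = 3 each). Alcohol against water gave 0.20 (SE 0.12, limma adjusted p = 0.819), which is 1.15-fold with a 95% confidence interval of 0.96 to 1.37. Of the 9 alcohol pools 8 were above the water mean, and the exact permutation test gave p = 0.15. With slide as a fixed term the difference was 0.06 for alcohol, 0.42 for early high and 0.61 for late high against water and 0.45 for high against low (lowest limma adjusted p of these 0.318). Without that term the largest difference was that of early high against water, at 0.29 (95% confidence interval -0.01 to 0.59, limma adjusted p = 0.89), followed by late high against water at 0.25 (limma adjusted p = 0.392), which was 0.15 without late high pool 1 and 0.38 without scaling between arrays. High against low gave 0.22 (95% confidence interval -0.04 to 0.48, limma adjusted p = 0.389), with 5 of 6 high pools above the low mean. It was 0.35 without scaling (unadjusted p = 0.0152, adjusted p = 0.261 in limma) and 0.36 with median scaling (unadjusted p = 0.0222, adjusted p = 0.232 in limma). Within slide 2 the 2 early high pools were above the 2 low pools by 0.36. On slide 3 the late high mean was above the early high pool by 0.19.

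Agrp, made by the same arcuate cells as Npy, varied over the same range and also had its lowest level in water pool 1. Its level was -1.33, -1.09 and -0.96 in the water pools and -1.10, -0.84 and -1.05 in the low pools. It was -1.04, -0.82 and -0.74 in the early high pools and -0.88, -1.29 and -1.06 in the late high pools. Early high pools were highest on average, but each group overlapped with water.

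Alcohol against water gave 0.15 for Agrp (SE 0.11, 95% confidence interval -0.10 to 0.40, limma adjusted p = 0.828), with 8 of 9 alcohol pools above the water mean and p = 0.264 in the exact permutation test. It was 0.04 without water pool 1 and 0.03 with slide as a fixed term. Early high against water gave 0.26 (95% confidence interval -0.04 to 0.56, limma adjusted p = 0.89), low against water 0.13 (limma adjusted p = 0.856) and late high against water 0.05 (limma adjusted p = 0.894). These were 0.05, 0.03 and -0.29 when slide was a fixed term, and the first 2 were 0.16 and 0.03 without water pool 1. Late high was below early high by a log2 difference of -0.21 (SE 0.14, limma adjusted p = 0.548), or -0.11 without late high pool 2 and -0.06 without scaling, and the late high mean was also lower than the early high pool on slide 3, at -0.34. High against low gave 0.03 (limma adjusted p = 0.932). Over the 12 arrays Agrp and Npy had a Spearman rho of 0.41 and a Pearson r of 0.30, which fell to 0.12 after the group means were taken out. With 12 arrays these values do not settle whether both genes moved together.

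Cartpt was the most even of the 4 genes. Probe 1 gave 4.93, 4.97 and 4.69 in the water pools and 4.80, 4.90 and 4.87 in the low pools. It gave 4.98, 4.79 and 5.04 in the early high pools and 4.80, 4.58 and 4.98 in the late high pools. All groups overlapped, and late high pool 2 was lowest. The SD over the arrays was 0.14 for probe 1 and 0.12 for probe 2, near the median SD of all probes compared (0.13).

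Alcohol against water gave 0.00 for Cartpt (SE 0.09, limma adjusted p = 0.998), with a 95% confidence interval of -0.21 to 0.20, or 0.87-fold to 1.15-fold. Probe 2 gave -0.05 with an interval of -0.24 to 0.14 (limma adjusted p = 0.916). The largest difference of probe 1 was late high against early high at -0.14 (SE 0.12, limma adjusted p = 0.638), which was -0.04 without late high pool 2 and -0.24 without late high pool 3. The probes moved together over the arrays, with a Pearson r of 0.90.

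Across the arrays, the pools with more Npy tended to have less Cartpt. Pearson r was -0.42 with probe 1 and -0.60 with probe 2 (Spearman rho -0.40 and -0.72, n = 12), and -0.65 and -0.62 after the group means were taken out. Water pool 3, for example, had the highest Npy and the lowest Cartpt of the water pools, and low pool 2 had the lowest Npy and, on probe 1, the highest Cartpt of the low pools. The points share slides and the same scaling for both genes. Every other pair of different genes had an r between -0.24 and 0.30. Without low pool 1, the r of Pomc was -0.19 with Npy, -0.32 with Agrp and 0.18 with Cartpt probe 1.

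The genes most like each of the 4 were looked up among the probes with a symbol that were well above background on all arrays (23337 for Pomc, Npy and Agrp and 23336 for Cartpt). For Pomc they were Ipo7 (Pearson r 0.896 over 12 arrays), 9930033D15Rik, Abcd3, Glb1l and Hnrnpf, the last with 0.884. Without low pool 1 these fell to between -0.131 (9930033D15Rik) and 0.614 (Ipo7) over 11 arrays, so they rest on that pool. For Npy they were Arhgap20 (0.932), 4932438A13Rik, Fyco1, Pnpla6 and Taf2 (0.857). For Agrp they were Tnrc6b (0.855), Zfp287, Hspa2, Dync2h1 and H13 (0.824). For Cartpt they were Kifap3 (0.896), Slc4a2, Rtf2, Slc17a6 (0.877) and Arhgap27 (0.867). Slc17a6 encodes the vesicular glutamate transporter of hypothalamic neurons, and it is also 1 of the 10 genes counted here as thalamus markers. None of the 4 genes was among the 5 most like another.

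The pathway around Pomc and Agrp was read from 16 genes for melanocortin receptors, their partners and the enzymes that cut and finish the peptides. Of the 14 tested, 0 passed an adjusted p of 0.05 in any comparison. For alcohol against water 1 was higher and 1 lower at an unadjusted p under 0.05, where 3.85% (1246) of all probes were higher and 1.68% (543) lower. After quantile normalization these were 996 and 987 probes. The median of the 14 differences was 0.03, equal to that of all probes. Mc3r, a melanocortin receptor also found on Pomc and Agrp neurons, had the lowest difference, -0.28 (SE 0.12, unadjusted p = 0.0322 and adjusted p = 0.819 in limma).

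Mc3r was at -0.67, -0.51 and -0.67 in the water pools and -0.70, -0.70 and -0.82 in the low pools. It was at -0.85, -0.69 and -0.96 in the early high pools and at -1.17, -1.16 and -1.07 in the late high pools. No alcohol pool reached the water pools, and the late high pools were the lowest of all. Arrays of alcohol and water did not overlap in this direction in 0.325% of probes. The difference was -0.08 when slide was a fixed term of the model. For alcohol against water, that fit sets low pool 1 alone against the water pools, here and for each gene below.

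Mc4r, the receptor through which α-MSH lowers food intake, differed by -0.07 (SE 0.13, limma adjusted p = 0.926), and by 0.18 when slide was a fixed term. Of the enzymes, Cpe, which trims the ends of cut peptides, differed by 0.10 (SE 0.05, unadjusted p = 0.0449 and adjusted p = 0.819 in limma), and by 0.02 after quantile normalization. The convertases Pcsk1 and Pcsk2, which cut Pomc, differed by 0.03 and 0.06, and Prcp, which inactivates α-MSH, by -0.06. When slide was a fixed term, these 3 values were 0.19, -0.03 and 0.0. Sdc3, a syndecan that helps Agrp act at the receptor, had the highest difference, 0.17 (SE 0.09, limma adjusted p = 0.819). Sdc3 was at 1.69 to 1.87 in the 6 high pools and at 1.45 to 1.59 in the water and low pools, so the high pools stood apart from both. Arrays of high and low drinkers did not overlap in this direction in 1.66% of probes. Within slide 2 Sdc3 was at 1.81 and 1.81 in early high pools 1 and 2 and at 1.52 and 1.56 in low pools 2 and 3. With slide as a fixed term the difference of alcohol and water was -0.08, a value of low pool 1 that does not draw on the high pools.

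Of 8 genes of the Npy receptors and the Npy family, 7 were tested and 0 passed an adjusted p of 0.05 in any comparison. For alcohol against water 1 (the dim Npy6r) was higher and 1 (Npy5r) lower at an unadjusted p under 0.05. Over all probes 3.85% were higher and 1.68% lower. The median difference of the 7 was -0.04, where that of all probes was 0.03. Npy5r, a receptor through which Npy drives feeding, differed by -0.16 (SE 0.07, unadjusted p = 0.0362 and adjusted p = 0.819 in limma). It was at -1.40, -1.45 and -1.22 in the water pools and between -1.62 and -1.33 in the alcohol pools, so the groups overlapped, and the difference was 0.02 when slide was a fixed term.

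Npy1r, the other main feeding receptor, differed by -0.04 (SE 0.05, limma adjusted p = 0.888), and Npy2r, the receptor by which Npy neurons restrain themselves, by -0.09 (SE 0.09, limma adjusted p = 0.845). Pyy, a gut peptide of the same family, had the lowest difference, -0.21 (SE 0.14, limma adjusted p = 0.82). When slide was a fixed term, Npy2r and Pyy came out at 0.07 and 0.02, with the sign turned. Npy6r was dim. It was not well above background on any water pool and was so on 7 of 9 alcohol pools. The mean of the alcohol pools lay 2.11-fold above a bound for the water pools. For such a bound, each water array counts at the higher of its own value and the lowest signal among its probes well above background. Low pools 2 and 3, at -2.76 and -3.91, raised the alcohol mean most, and the other alcohol pools lay between -5.79 and -4.89. The measured water values, -6.12 to -6.04, were too dim for an exact difference. Taken as they are, they gave 1.23 (limma adjusted p = 0.819), or 1.0 after quantile normalization. With slide as a fixed term it was 0.29, which is low pool 1, at -5.79, against the water pools.

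**Figure D4:**
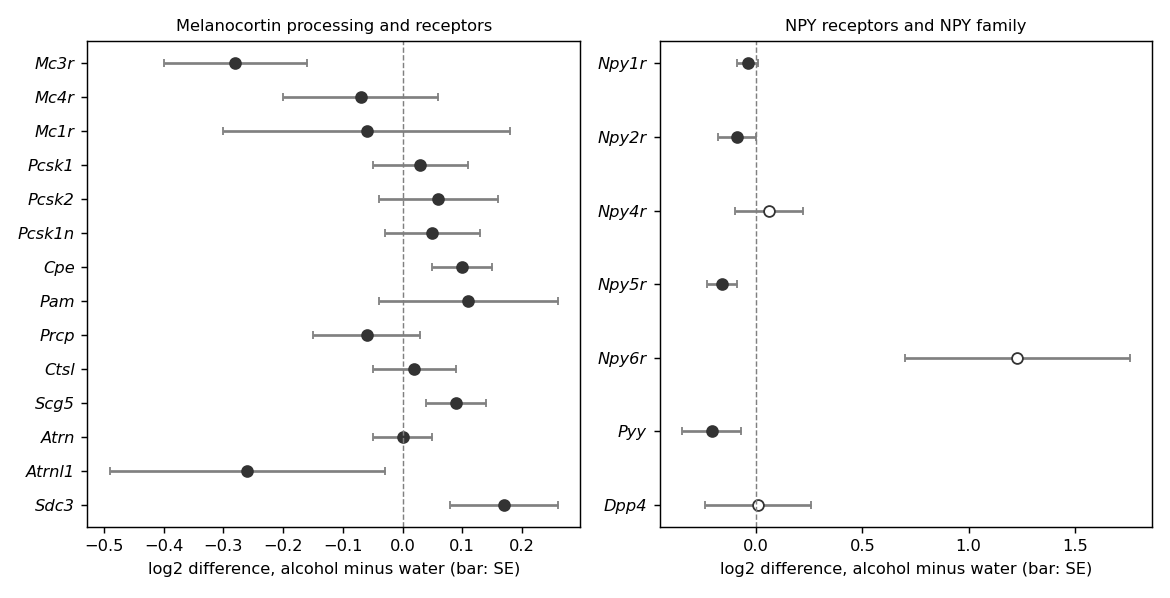
Difference of alcohol and water pools (x axis, log2, alcohol minus water) for the tested genes of the melanocortin list (left) and the Npy list (right), with bars for the SE of the limma fit. Filled points were well above background on all 12 arrays, and open points were not. The panels have different x scales. Most points lie within 0.3 of 0, and the exception is the dim Npy6r at 1.23. Its measured water values, which enter that point, were not well above background.

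Markers of the arcuate nucleus and its surroundings served to ask whether the pools held like amounts of that region. Of 19 genes 17 were tested and 0 passed an adjusted p of 0.05 in any comparison. The summed level of the list was 4.96 to 5.08 in the water pools, 5.06 to 5.09 in the low pools, 4.92 to 5.09 in the early high pools and 4.83 to 5.12 in the late high pools. Peptide genes of other arcuate cells, Ghrh and Tac2, differed between alcohol and water by 0.01 (SE 0.09) and -0.08 (SE 0.09). With slide as a fixed term they differed by -0.13 and -0.09.

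In this list 2 genes were higher and 0 lower at an unadjusted p under 0.05, where 3.85% of all probes were higher and 1.68% lower. Rax, a factor of the tanycytes that line the floor of the third ventricle, differed by 0.78 (SE 0.23, unadjusted p = 0.00583 and adjusted p = 0.819 in limma), and by 0.13 with slide as a fixed term. It was at -4.37 to -4.02 in the water pools and at -4.06 in low pool 1 on the same slide, and at -3.72 to -2.62 in the 8 alcohol pools of the other slides. Th, which encodes the enzyme that starts dopamine synthesis, differed by 0.51 (SE 0.20, unadjusted p = 0.0253 and adjusted p = 0.819 in limma), and by 0.55 with slide as a fixed term. Water pools were at 0.20, 0.73 and 0.63. Alcohol pools were between 0.86 and 1.57 except for late high pool 1 at 0.35, so 8 of 9 were above all water pools.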

How the data were processed

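Total RNA from hypothalamus was Cy3-labeled by the authors and hybridized to Agilent mouse 4 × 44K arrays. The deposited scanner files hold background-corrected signal intensity on a linear scale (Agilent Feature Extraction 10.5.1.1 in the file headers), with no scaling between arrays. The deposited value table holds the same intensity per probe (r = 1.0 with the scanner values on each of 12 arrays, median log2 difference 0.0). Its direction and scale are therefore known.

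Intensities were log2 transformed and the 75th percentile of each array's 43379 non-control spots was subtracted. Following the study's methods, non-uniform outlier spots and spots under 2 times their error were set to missing, and a probe needed a value in more than 50% of the arrays of each group compared. Spots of a probe were averaged, and a gene was read from its probe with the highest mean. Old gene names were updated through RefSeq for 25097 probes. Differences were tested with limma 3.58.1 in R 4.3.3 (lmFit and eBayes, Benjamini-Hochberg adjustment over all probes), with 2 groups for alcohol against water (32376 probes) and with 4 group means for the others (31622 probes), and with exact two-sided permutation tests over arrays. With 3 against 3 arrays the latter cannot go below 0.1. Figures were drawn with matplotlib 3.10.9. On simulated data for 31622 probes, of 200 probes moved by 1 on the log2 scale, the fit called 164 for alcohol against water and 142 for late high against early high, with 16 and 12 unchanged probes called.

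The 4 genes and all gene lists were chosen with earlier results of these data known, so their counts are descriptions. Named were the 4 genes, the 5 genes most like each by Pearson r, list genes past an unadjusted p of 0.05 for alcohol against water, the highest and lowest of the melanocortin, Npy and pituitary lists among genes well above background on all arrays, and markers beside a Pomc value. Some genes that this rule names are not reported here. Other receptors and enzymes (Mc4r, Pcsk1, Pcsk2, Prcp, Npy1r, Npy2r) and the examples Ghrh, Tac2, Kl, Aqp1, Slc18a2 and Slc6a3 were added after their values were seen. Alternatives changed the background correction (normexp with an offset of 50), the scaling, the filters, the source of the values, the probe, the test and the blocks, and left out each array in turn.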

Additional observations from a re-analysis of the deposited data

Results flagged for a closer look

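The Pomc level of low pool 1 was far from the other alcohol pools. Its gap to the nearest of them (5.01 against 3.68) was 0.761 of the whole range of the 9 alcohol arrays. The measure was taken for 7 quantities (the 5 probes and the summed levels of the arcuate and the pituitary list), of which 1 had a far value. Chance flags about 1 in 20 such groups, or 0.35 of 7.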

How the results depend on the processing

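Of 274 alternatives of the 24 differences (4 genes in 6 comparisons), 35 turned the sign and 4 passed an adjusted p of 0.05, and of 288 fits without 1 array 27 turned the sign and 0 passed. All 4 that passed were Pomc with slide or scan day as a fixed block, which rests on low pool 1. The scan day block was chosen after seeing the data. With slide as a fixed block Pomc was 1.33 for alcohol, 1.42 for early high and 1.40 for late high against water and 0.08 for high against low, Npy 0.19 for late high against early high, Agrp -0.29 for late high against water and -0.15 for high against low, and Cartpt -0.07 for early high against water and -0.13 for high against low. With slide as a random block Pomc was 0.30 for alcohol and 0.02 for early high against water, Npy 0.00 for late high against early high and Cartpt -0.01 for high against low. With scan day as a block Pomc was 1.33 for alcohol and for low (limma adjusted p = 0.00243), 1.36 for early high and 1.21 for late high (limma adjusted p = 0.0408) against water, Agrp -0.10 for late high against water and -0.02 for high against low, and Cartpt -0.02 for early high against water and -0.03 for high against low.

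Other scalings turned no difference larger than 0.15 in size. Without scaling, late high against early high was 0.01 for Pomc, 0.12 for Npy and 0.01 for Cartpt, low against water -0.03 for Npy, and Cartpt 0.00 for alcohol and 0.05 for late high against water. With median scaling Npy was -0.10 for low against water and 0.04 for late high against early high, and Agrp -0.02 for low against water. Normexp gave -0.02 for Agrp and -0.02 for Cartpt in high against low and 0.00 for Cartpt in early high against water, where quantile normalization gave 0.00 in high against low. The other Cartpt probe gave -0.03 for early high against water and -0.06 for high against low.

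Leaving out each array in turn gave ranges that crossed 0 for Pomc in low against water (-0.20 to 0.57, negative only without low pool 1), Npy in low against water (-0.01 to 0.15) and late high against early high (-0.14 to 0.08), Agrp in late high against water (-0.05 to 0.16) and high against low (-0.02 to 0.11), and Cartpt in alcohol (-0.09 to 0.05), low (-0.09 to 0.05), early high (-0.02 to 0.14) and late high (-0.17 to 0.03) against water and in high against low (-0.05 to 0.06). Other wide ranges were, for Pomc, -0.24 to -0.02 for alcohol and -0.26 to -0.11 for early high against water, and -0.82 to -0.05 for high against low, for Npy 0.13 to 0.30 for alcohol and 0.15 to 0.37 for late high against water, for Agrp 0.04 to 0.23, 0.03 to 0.21 and 0.16 to 0.35 for alcohol, low and early high against water, and -0.31 to -0.11 for late high against early high. Over all probes, the 69 called in low against water became 0 with no filter on dim probes or with the slide block, 1 with only probes above background on all arrays, 6 after quantile normalization, 127 with median scaling, 222 with the scan day block and 2482 without low pool 1. Without any other single array they became 0 (without early high pool 3) to 22 (without early high pool 1), among them 1 without low pool 2 or water pool 3, 2 without water pool 1 and 5 without water pool 2. The 7 called in high against low became 161 with normexp, 117 with median scaling, 52 with the slide block, 0 with no filter on dim probes or only probes above background on all arrays, 2646 with the scan day block, 2255 without low pool 1, 126 without late high pool 3, 16 without low pool 3, 0 without low pool 2, early high pool 2 or early high pool 3, and 2 or 3 without any other array. The 0 called in late high against water became 64 with only probes above background on all arrays, 33 with the scan day block, 39 without water pool 1, 44 without early high pool 3 and 442 without late high pool 3, and the 0 in late high against early high became 13 with the slide block, 107 without late high pool 3 and 199 without early high pool 3. The cause was not tested.

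Replicate numbers did not pair the samples (correlations of same-numbered pools -0.09 to 0.18, of others -0.18 to 0.17). With the replicate block, Pomc was -0.06, Npy 0.20, Agrp 0.15 and Cartpt 0.00 for alcohol against water, and no sign or call of the 24 differences changed. The block took the probes called from 69 to 7 in low against water and from 7 to 0 in high against low.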

Other observations

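Other lists of hypothalamic and neighbouring tissue were read as values. For alcohol against water, 0 genes of any list passed an adjusted p of 0.05 in limma. Genes at an unadjusted p under 0.05 included Vip, a peptide of the suprachiasmatic nucleus, at 0.25 (SE 0.10, 0.25 with slide as a fixed block), and the developmental factors Six6 at 0.25 (SE 0.10) and Dlx5 at 0.24 (SE 0.11), which were 0.04 and 0.10 with the block. Among cortex markers Lamp5 was at -0.17 (SE 0.07). The dim Slc17a7 was well above background on 0 water and 5 alcohol pools and had a value on 6 of 9 alcohol pools, so no fold is given.

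Of the genes of the pituitary list well above background on all arrays, the difference was lowest for Cga, at -0.47 (SE 0.79), which turned to 0.54 when slide was a fixed term. The median difference of alcohol and water was 0.01 for other hypothalamic peptides, 0.02 for other hypothalamic regions, -0.04 for pituitary, -0.01 for cortex, 0.03 for striatum, 0.13 for thalamus, -0.17 for choroid plexus, -0.30 for blood and 0.08 for white matter markers, and 0.03 for all probes. The pituitary median was 0.34 for low, -0.34 for early high and -0.21 for late high against water and -0.94 for high against low.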
